A study of Mus musculus with 24 samples.

Results

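The MHC class II presentation genes were followed in mouse lacrimal gland stem cells (LGSCs) and in the lacrimal gland (LG). The set held 8 genes, H2-Aa, H2-Ab1, H2-Eb1, H2-DMa, H2-DMb1, H2-Oa, Cd74 and Ciita, of 63862 genes listed. All 8 were found by their Ensembl identifiers. They were chosen by function and because H2-Ab1 was higher in LGSCs at day 14 than at day 7, so that comparison is given as a description with no test. All animals were C57BL/6 mice. LGSC spheres came from the LG of mice aged 6 to 8 weeks and were grown in Matrigel in a serum-free medium with EGF, FGF10, Wnt3A and the kinase inhibitor Y-27632, and passage 2 spheres were sequenced at day 5 (2 libraries), day 7, day 10 and day 14 (3 libraries each). Whole LG was sequenced from adult mice, and from embryos at embryonic days E17.5 and E19.5 (3 libraries each), and 1 library came from passage 10 spheres at day 7. The labels give no age in weeks for the adult gland.

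Class II molecules display peptides from ingested material on the cell surface to CD4 T cells. H2-Aa and H2-Ab1 encode the alpha and beta chains of the I-A heterodimer, and H2-Eb1 encodes the beta chain of I-E. Cd74 is the invariant chain that escorts new class II molecules to endosomes, H2-DMa and H2-DMb1 form the H2-DM heterodimer that exchanges the remnant of Cd74 for peptide, and H2-Oa is a chain of H2-DO, which restrains H2-DM. Ciita is the transactivator on which transcription of these genes depends. Dendritic cells, macrophages and B cells express them constitutively, and many epithelial cells express them after exposure to interferon-gamma.

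Class II genes are known for a shared promoter module of an X box and a Y box, and 4 members had a Y box match in the RefSeq windows of GRCm38.p6, which run from 250 bases before to 50 bases after the annotated start. Windows were at hand for 5 of the 8 members. The stretches around the match are shown because this module is the known target of the machinery that Ciita joins. Capitals mark the Y box letters TGATTGG and matches to a 13-letter X box pattern with free positions, both searched on both strands and not overlapping. The patterns were chosen with sequences of these genes known.
H2-Aa, chr17:34287842-34287928, minus strand: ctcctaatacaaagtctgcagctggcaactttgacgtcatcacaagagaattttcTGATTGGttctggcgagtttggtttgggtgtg
H2-Eb1, chr17:34305751-34305837, plus strand: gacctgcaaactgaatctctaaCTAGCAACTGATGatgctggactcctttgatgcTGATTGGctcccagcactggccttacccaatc
H2-DMb1, chr17:34153073-34153159, plus strand: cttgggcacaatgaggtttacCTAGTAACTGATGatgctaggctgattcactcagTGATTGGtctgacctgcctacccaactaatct
H2-Oa, chr17:34092279-34092365, plus strand: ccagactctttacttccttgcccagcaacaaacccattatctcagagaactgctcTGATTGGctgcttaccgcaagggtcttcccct
The Y box letters began at position -50 of H2-Aa, -61 of H2-Eb1, -63 of H2-DMb1 and -45 of H2-Oa, counted from the annotated start, all on the coding strand. The X box letters began at -94 in H2-Eb1 and at -97 in H2-DMb1. Of 32851 windows of all genes, 7.82% held the Y box letters, 0.715% the X box letters and 0.0639% both. Neither of the 2 windows of H2-DMa held these letters. A match is a description of the sequence only.

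In GENCODE M21 on GRCm38, 6 of the 8 genes lie in the H2 region of chromosome 17. H2-Oa (ENSMUSG00000024334) is at chr17:34092340-34095234 on the plus strand, H2-DMa (ENSMUSG00000037649) at chr17:34119541-34139101 on the plus strand, and H2-DMb1 (ENSMUSG00000079547) at chr17:34153072-34160230 on the plus strand. H2-Ab1 (ENSMUSG00000073421) is at chr17:34257689-34269419 on the plus strand, H2-Aa (ENSMUSG00000036594) at chr17:34282744-34287823 on the minus strand, and H2-Eb1 (ENSMUSG00000060586) at chr17:34305867-34316674 on the plus strand. Ciita (ENSMUSG00000022504) is at chr16:10480059-10528418 and Cd74 (ENSMUSG00000024610) at chr18:60803848-60812652, both on the plus strand. The library kit did not mark strand, and 4 members share exon bases with another gene, so reads there cannot be told apart. H2-DMa shares 360 bases with Brd2, H2-Oa shares 321 bases with BC051537, Ciita shares 329 bases with Dexi and Cd74 shares 12 bases with Mir5107.

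Values are FPKM, in which fragment numbers are divided by gene length and by a library scale. The low values were whole multiples of 1 read, so reads could be recovered (92.6% to 93.6% of genes whole within 0.01). Totals were 6040508 to 9420728 recovered reads in the 20 passage 2 and tissue libraries and 25172949 in the passage 10 library, which was counted against another gene list and entered no test. Adult LG replicates 1 and 2 stood apart in scale, with recovered totals 2.504 and 2.328 times the scale of their FPKM against 1.073 in replicate 3. The replicate 2 cultures also stood apart, with 130 to 176 FPKM of the keratin Krt18 against 689 to 1734 FPKM in the other passage 2 cultures. Of the gland markers, Aqp5 was at 0.472 to 0.568 FPKM in adult LG and at 0 to 0.270 FPKM in passage 2 cultures, and the epithelial marker Cdh1 was at 388 to 916 FPKM in those cultures. Gapdh and Epcam were listed at 0 in all 20 libraries but not in the passage 10 library, and 1098 Ensembl genes at 0 in all 20 libraries had at least 1 FPKM in passage 10, so a member listed at 0 in the 20 libraries is described as that and no more. The labels do not say whether replicates were separate mice or cultures, so the spread between them may be technical.

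H2-Aa, H2-Ab1 and Cd74 were far higher in adult LG than in embryonic LG. H2-Ab1 was at 394, 747 and 625 FPKM in the 3 adult libraries, against 9.03, 6.27 and 6.41 FPKM at E17.5 and 8.03, 5.50 and 8.49 FPKM at E19.5. H2-Aa, its partner chain, was at 207, 350 and 312 FPKM in adult LG, at 3.91, 3.32 and 4.33 FPKM at E17.5, and at 6.71, 4.04 and 5.51 FPKM at E19.5. For both genes every adult library lay far above every embryonic library, and the embryonic stages overlapped. Cd74 was at 592, 1206 and 1122 FPKM in adult LG, 14.0, 15.0 and 18.2 FPKM at E17.5, and 19.3, 12.9 and 15.9 FPKM at E19.5, so it was the most abundant member in all 9 tissue libraries on this per-length scale.

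H2-DMb1 and Ciita showed the same order at lower levels. H2-DMb1 was at 14.5, 25.9 and 24.6 FPKM in adult LG, 1.38, 2.10 and 1.51 FPKM at E17.5, and 3.08, 1.65 and 2.15 FPKM at E19.5. Ciita was at 2.68, 4.74 and 4.27 FPKM in adult LG, 0.367, 0.197 and 0.285 FPKM at E17.5, and 0.283, 0.127 and 0.0728 FPKM at E19.5. Adult and embryonic libraries did not overlap for either gene, although the embryonic Ciita values rested on 3 to 15 reads each. H2-Oa differed from the others. It was at 0.631, 2.88 and 1.2 FPKM in adult LG, 2.15, 2.92 and 1.81 FPKM at E17.5, and 2.52, 1.35 and 1.36 FPKM at E19.5, and all 3 groups overlapped.

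H2-Eb1 and H2-DMa gave almost no reads. H2-Eb1 was at 0.700, 0.266 and 0.664 FPKM in adult LG (2, 1 and 6 reads) and at 0 to 0.109 FPKM in the embryonic libraries. H2-DMa was listed at 0 in all 9 tissue libraries. Both values stand beside the genes such as Gapdh that were listed at 0 in the same tables. Neither gene passed the filter of a mean of 0.5 FPKM.

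**Figure D1:**
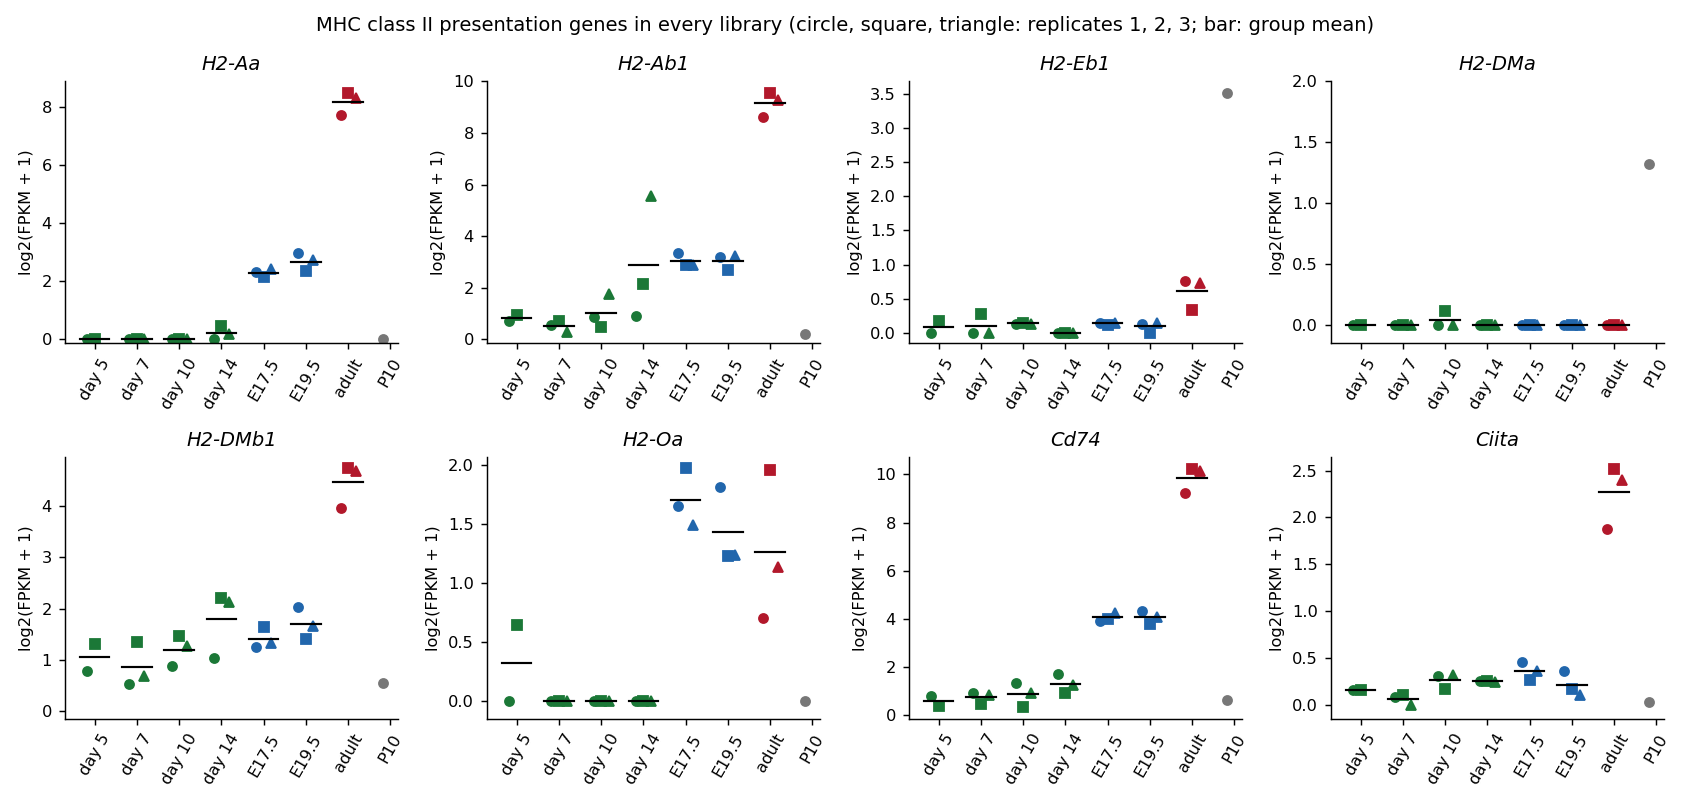
Each panel plots log2(FPKM + 1) of 1 class II gene in passage 2 LGSC spheres by day (green), embryonic LG (blue), adult LG (red) and the passage 10 LGSC library (grey), with symbols for replicates 1 to 3 and a bar at the group mean of the log values. Adult LG is highest for H2-Aa, H2-Ab1, H2-DMb1, Cd74 and Ciita, a single day 14 library stands out for H2-Ab1, and the passage 10 library is highest for H2-Eb1 (10.4 FPKM) and H2-DMa (1.49 FPKM).

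The comparison of embryonic with adult LG asked how the gland differed between late development and maturity. Of the 8 members, 6 were tested, and 5 of them (H2-Aa, H2-Ab1, H2-DMb1, Cd74 and Ciita) were lower at E17.5 than in adult LG by limma with Benjamini-Hochberg adjustment over 18578 genes, among which 24.9% were called lower. H2-Aa, H2-DMb1 and Ciita were 75.1-fold, 13-fold and 13.8-fold lower by group means, H2-Ab1 was 81.3-fold lower and Cd74 61.8-fold lower. On the log2(FPKM + 1) scale, which understates the change of low genes, H2-Ab1 differed by -6.13 (SE 0.27, adjusted p = 7.88e-07) and Cd74 by -5.80 (SE 0.28, adjusted p = 1.35e-06). H2-Aa differed by -5.87 (SE 0.23, adjusted p = 5.13e-07), H2-DMb1 by -3.06 (SE 0.25, adjusted p = 2.35e-05) and Ciita by -1.91 (SE 0.19, adjusted p = 5.54e-05). H2-Oa did not pass, with a difference of 0.44 (SE 0.32, adjusted p = 0.276, 0.0277 to 0.68 over 16 alternatives). Ciita passed the filter only through its adult level, since its embryonic means were below 0.5 FPKM, so its direction was fixed by the filter.

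The same 5 genes were lower at E19.5 than in adult LG, where 23.9% of all genes tested were called lower. H2-Ab1 differed by -6.11 (SE 0.27, adjusted p = 9.49e-07), Cd74 by -5.79 (SE 0.28, adjusted p = 1.64e-06), H2-Aa by -5.49 (SE 0.23, adjusted p = 8.25e-07), H2-DMb1 by -2.77 (SE 0.25, adjusted p = 4.58e-05) and Ciita by -2.06 (SE 0.19, adjusted p = 4.28e-05). H2-Oa differed by 0.16 (SE 0.32, adjusted p = 0.69). Both comparisons share the adult libraries. When FPKM were rescaled to the recovered reads of each library, the median of all genes moved from 0.05 to 0.51 at E17.5 and from 0.09 to 0.47 at E19.5, and H2-Ab1 still differed by -5.23 and -5.31. H2-Oa was then called higher at E17.5 by 0.87 (adjusted p = 0.0277), against that median of 0.51, and also without adult LG replicate 2 (0.78, adjusted p = 0.036). The split of all calls depended on this scale: 5405 higher and 4634 lower at E17.5 became 8125 and 2318, and 5637 higher and 4440 lower at E19.5 became 7680 and 2261.

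Between the embryonic stages none of the 6 members tested was called in limma, while 1.74% of all genes were (323 of 18578 in either direction, and 2841 genes at an unadjusted p under 0.05). H2-Ab1 differed by 0.01 (SE 0.27), Cd74 by 0.02 (SE 0.28), H2-Aa by 0.39 (SE 0.23), H2-DMb1 by 0.29 (SE 0.25), Ciita by -0.15 (SE 0.19) and H2-Oa by -0.28 (SE 0.32). The lowest adjusted p among these 6 was 0.508. limma-voom on the recovered reads called none of them either. The H2-Ab1 to H2-Aa ratio was 1.48 to 2.31 at E17.5, 1.2 to 1.54 at E19.5 and 1.90 to 2.14 in adult LG, so the ratios at E19.5 lay below those in adult LG.

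**Figure D2:**
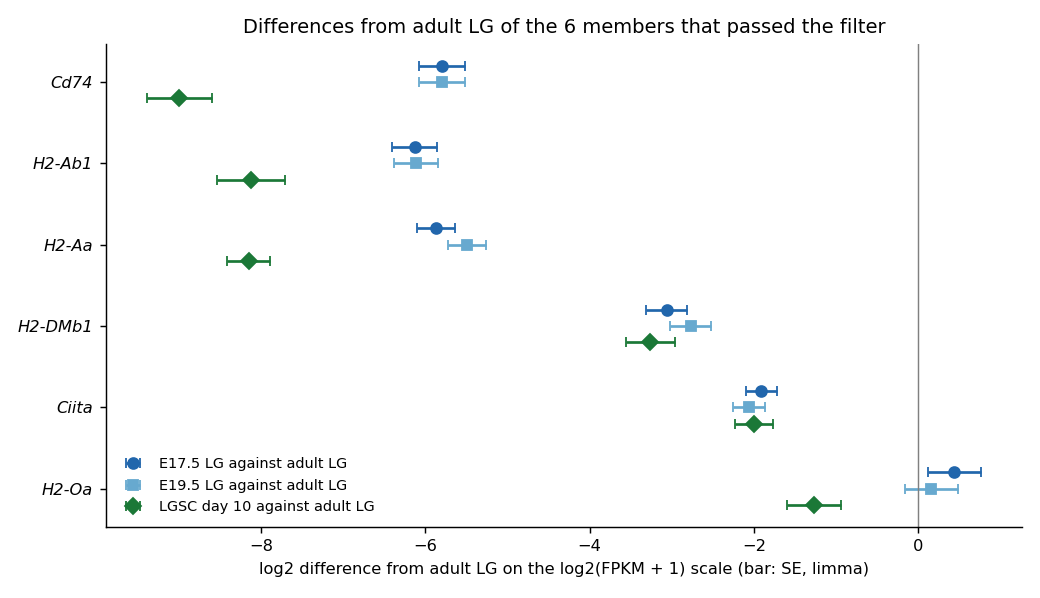
Points show the log2 difference from adult LG on the log2(FPKM + 1) scale for the 6 members that passed the filter, with bars for the limma standard error, at E17.5, at E19.5 and in LGSCs at day 10. Cd74, H2-Ab1 and H2-Aa lie furthest below 0, and only H2-Oa at E17.5 and E19.5 lies above 0, at 0.44 and 0.16.

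The wider pathway moved unevenly between embryonic and adult LG. Among other class II genes, H2-Ob, the beta chain of H2-DO, and H2-DMb2, a second H2-DM beta chain, were both lower at E17.5 (differences of -1.47 and -0.94, adjusted p = 2.25e-05 and 0.00185) and at E19.5 (-1.33 and -1.08, adjusted p = 4.43e-05 and 0.000945), and the other 2 of 4 did not pass the filter, which H2-Ob passed only through adult LG. H2-DMb1 and H2-DMb2 are close paralogs, and how the counting split reads between them is uncertain. Of 9 tested class II gene regulators out of 14, 4 were higher and 2 lower at E17.5 (median 0.07, against 0.05 over all genes). Over all 18578 genes tested, 5405 were called higher and 4634 (24.9%) lower at that stage, so these counts alone do not set the regulators apart. The 4 were Ifngr2, a receptor chain for interferon-gamma (31.7 against 12.8 FPKM, adjusted p = 7.49e-05), the Y box factors Nfya (24.3 against 15.1 FPKM, adjusted p = 0.00299) and Nfyc (13.6 against 8.47 FPKM, adjusted p = 0.00478), and the X box factor Rfx5 (14.5 against 10.2 FPKM, adjusted p = 0.0114). The lower genes included the other receptor chain, Ifngr1 (0.185 against 1.14 FPKM, adjusted p = 0.00257). Ifngr1 passed the filter only through adult LG. At E19.5, the same 4 were higher, Ifngr1 was lower and 4 did not pass (median 0.22, against 0.09), while 5637 of all genes were higher and 4440 (23.9%) lower. Under the rescaling to recovered reads such small differences shift with the median of all genes.

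Processing enzymes followed the class II chains only in part. Of 7 tested out of 10, 3 were lower at both embryonic stages and none was higher. Of all genes tested, 24.9% were called lower at E17.5 and 23.9% at E19.5. Ctss, the cathepsin that trims Cd74 in antigen presenting cells, was at 13.6 FPKM at E17.5 and 30.6 FPKM at E19.5 against 185 FPKM in adult LG (differences of -3.60 and -2.49, adjusted p = 1.85e-05 and 0.000152). The general lysosomal protease Ctsd fell by 1.48 and 0.96, and Ctsh by 1.84 and 0.77. The broadly expressed Ctsb (0.01 at E17.5, adjusted p = 0.98) and Lgmn (0.14, adjusted p = 0.735) did not pass.

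Class I presentation genes were lower in embryonic LG too, with 9 of 11 tested lower at E17.5 (median -1.76) and 7 lower and 1 higher at E19.5 (median -1.27). The shares of all genes called lower were 24.9% at E17.5 and 23.9% at E19.5. B2m, the light chain of class I, was at 359 and 790 FPKM against 1700 FPKM in adult LG (differences of -2.24 and -1.12, adjusted p = 1.64e-05 and 0.000765). The peptide transporter chain Tap2 was at 2.93 and 6.96 FPKM against 27.9 FPKM (-2.81 and -1.79, adjusted p = 3.2e-05 and 0.000426), and the immunoproteasome subunit Psmb10 was the gene that was higher at E19.5 (0.991 against 0.139 FPKM, adjusted p = 0.00604). Of 14 interferon-gamma inducible genes tested, 9 were lower at E17.5 (median -1.35). At E19.5, 4 of 14 were lower, near the 23.9% of all genes, and 1 was higher (median -0.11). The chemokine Cxcl10 was the higher one, at 44.1 FPKM against 5.38 FPKM (2.59, SE 0.52, adjusted p = 0.00304), and the 4 lower ones were the GTPases Gbp4, Gbp5, Tgtp1 and Tgtp2. From E17.5 to E19.5, 1 of 11 class I genes rose by limma, B2m (1.12, adjusted p = 0.023). So did 2 of 14 interferon-gamma inducible genes, Gbp3 (2.60, adjusted p = 0.0279) and Irgm1 (1.87, adjusted p = 0.023). Between these stages 1.74% of all genes and none of the 6 class II members tested were called. With so few members at that share, no contrast with class II can be drawn. Of the genes tested, 3 class I and 4 interferon-gamma inducible genes passed the filter only through adult LG. Of the costimulators, Cd86 and Cd40 were tested and neither passed at either stage.

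Most leukocyte lists were also lower in embryonic LG by their summed level, and the macrophage list overlapped adult LG at E19.5. The summed FPKM of the pan-leukocyte list was 58.3 to 100 in adult LG, 30.3 to 33.6 at E17.5 and 36.2 to 39.8 at E19.5, and 4 of 5 tested were lower at each stage (median -1.31 and -1.18). The dendritic cell list summed to 24.3 to 46.5 FPKM in adult LG, 3.38 to 4.27 at E17.5 and 3.49 to 4.34 at E19.5, with 5 of 6 tested lower at each stage. Itgax, a dendritic cell integrin, was at 17.9 FPKM in adult LG and 0.119 and 0.186 FPKM in the embryonic stages (adjusted p = 1.74e-05 and 2.18e-05), and Ccr7 was at 9.25, 0.281 and 0.278 FPKM. The macrophage list summed to 313 to 880 FPKM in adult LG, 158 to 191 at E17.5 and 308 to 381 at E19.5, with 5 of 8 tested lower at E17.5 and 3 at E19.5, and 1 higher at each stage. That gene was Mrc1, a macrophage mannose receptor (22.1 and 43.9 against 3.34 FPKM, adjusted p = 4.69e-05 and 9.51e-06). The T cell list summed to 8.17 to 16.9 FPKM in adult LG, 0.830 to 1.71 at E17.5 and 1.87 to 2.39 at E19.5, with 4 and 3 of 4 tested lower. The B cell list summed to 6.21 to 11 FPKM, 3.94 to 4.6 and 4.47 to 6.07, with 1 of 2 tested lower at each stage. Among all 18578 genes tested, 24.9% were called lower at E17.5 and 23.9% at E19.5, and 5405 and 5637 genes were called higher. The macrophage counts at E19.5 and the B cell counts cannot be told from these shares. Of the leukocyte markers, 4 dendritic cell genes (Itgax and Ccr7 among them), 2 T cell genes and 1 pan-leukocyte gene passed the filter only through adult LG. In bulk tissue fewer cells of a type and less RNA per cell cannot be told apart. The part of leukocytes in the class II differences was not tested.

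**Figure D3:**
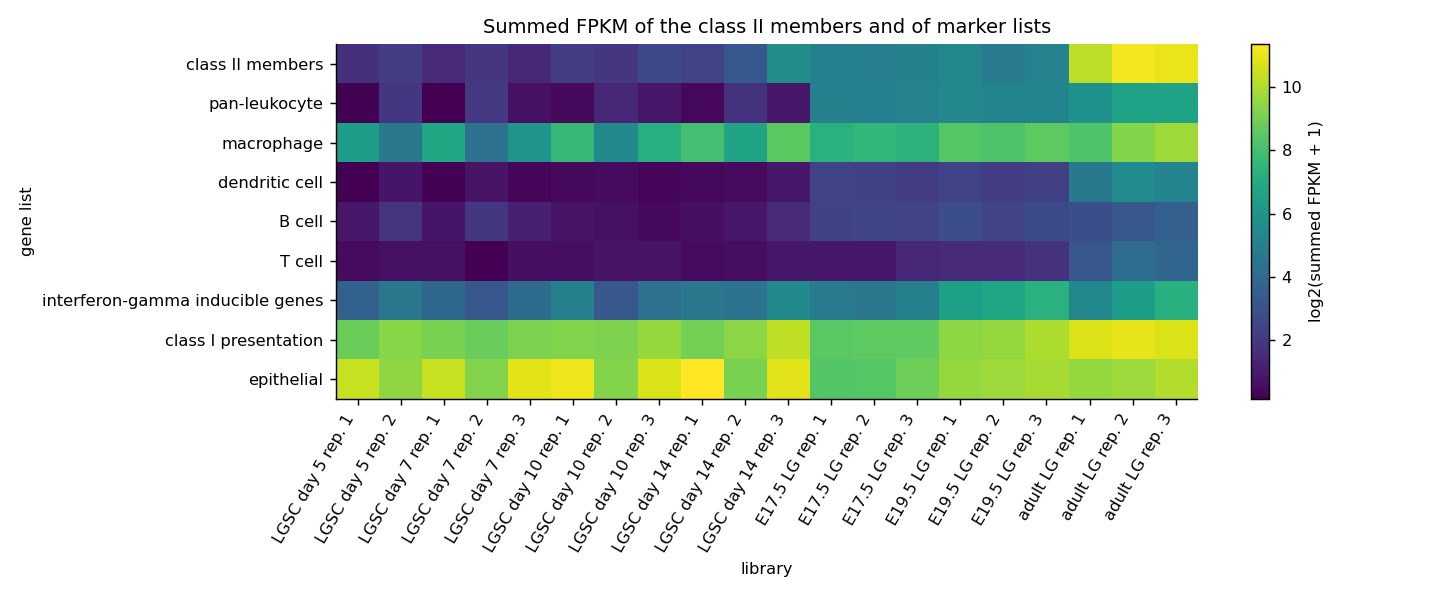
Colors give log2(summed FPKM + 1) of the class II members and of marker and pathway lists (rows) in each of the 20 passage 2 and tissue libraries (columns). The class II row is brightest in adult LG (1211 to 2337 summed FPKM), and within the cultures in day 14 replicate 3 (51.2). The pan-leukocyte, dendritic cell, B cell and T cell rows are also brightest in adult LG. In the macrophage row, adult LG replicate 1 (313) lies below E19.5 replicates 1 and 3 (338 and 381) and LGSC day 14 replicate 3 (373).

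In passage 2 LGSCs the members had few reads, at most 49 in any library except for the 627 reads of H2-Ab1 in day 14 replicate 3. Cd74 was at 0.751 and 0.314 FPKM at day 5, 0.919, 0.363 and 0.792 FPKM at day 7, 1.52, 0.276 and 0.902 FPKM at day 10, and 2.23, 0.877 and 1.37 FPKM at day 14, which were 3 to 28 reads. H2-DMb1 was at 0.713 and 1.49 FPKM at day 5, 0.436, 1.55 and 0.602 FPKM at day 7, 0.837, 1.75 and 1.40 FPKM at day 10, and 1.06, 3.63 and 3.40 FPKM at day 14. Neighbouring days overlapped for both genes, although every Cd74 value at day 14 lay above both values at day 5. The replicate 2 cultures were lowest for Cd74 and highest for H2-DMb1 on every day. H2-Aa was listed at 0 in 9 of the 11 libraries, where a count of 0 allows up to 3 reads or 0.173 to 0.236 FPKM, and at 0.360 and 0.128 FPKM (6 and 2 reads) in day 14 replicates 2 and 3. Ciita was at 0 to 0.242 FPKM (0 to 11 reads), H2-Oa at 0 except in day 5 replicate 2 (0.561 FPKM, 5 reads), H2-Eb1 at 0 to 0.216 FPKM (2 reads or fewer) and H2-DMa at 0 except in day 10 replicate 2 (1 read).

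H2-Ab1 was at 0.647 and 0.901 FPKM at day 5, 0.462, 0.625 and 0.205 FPKM at day 7, 0.828, 0.397 and 2.33 FPKM at day 10, and 0.891, 3.36 and 46.1 FPKM at day 14. The lowest day 14 value exceeded the highest day 7 value. Among the 8 members this also held for Ciita (8 or 9 reads against 0 to 3), which did not pass the mean filter. The share was 8.26% of the 15744 genes that passed that filter, a set without Ciita. The day 14 mean was 16.8 ± 25.4 FPKM (SD, n = 3) against 0.430 ± 0.212 FPKM (SD, n = 3) at day 7, so the SD at day 14 exceeded the mean. The log2 difference was 2.36, and it was 0.37, 1.43 and 5.29 within replicates 1, 2 and 3. Without day 14 replicate 3 it was 1.02. The difference between the days was carried mostly by that library, in which 627 reads fell on H2-Ab1 (95% Poisson interval of 42.6 to 49.8 FPKM, for counting error only) against 13 and 49 reads in the other day 14 libraries and 3 to 8 reads at day 7.

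The partners of H2-Ab1 did not share this level in day 14 replicate 3. H2-Aa was at 0.128 FPKM there, Cd74 at 1.37 FPKM, Ciita at 0.183 FPKM and H2-DMb1 at 3.40 FPKM, each within or near the range of the other day 14 libraries. The ratio of H2-Ab1 to H2-Aa was 359 in this library and 9.35 in day 14 replicate 2, against 1.2 to 2.31 in the 9 tissue libraries. Cd74 was at 0.0296 times H2-Ab1 there, against 1.5 to 2.83 times in tissue. Relative to the adult mean, H2-Ab1 stood at 7.83%, H2-Aa at 0.0443%, Cd74 at 0.140%, Ciita at 4.70% and H2-DMb1 at 15.7%. For the other members the log2 difference of day 14 from day 7 was 0.95 for H2-DMb1, 0.54 for Cd74, 0.19 for Ciita, 0.21 for H2-Aa, -0.09 for H2-Eb1 and 0.00 for H2-Oa and H2-DMa.

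**Figure D4:**
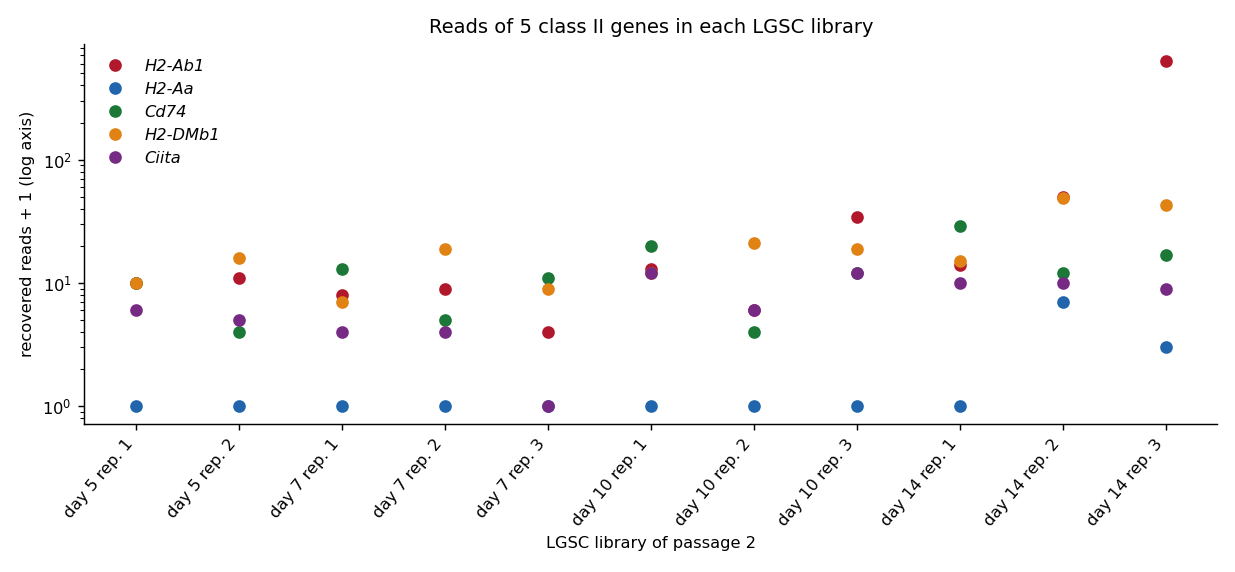
Points show recovered reads plus 1 on a log axis for 5 class II genes in each passage 2 LGSC library. H2-Ab1 reaches 627 reads in day 14 replicate 3, where H2-Aa has 2, Cd74 16, Ciita 8 and H2-DMb1 42 reads.

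H2-Ab1 was the named gene with the highest ratio of (FPKM + 1) in day 14 replicate 3 to its highest value in the other 10 passage 2 cultures (10.8), followed by Pgf (4.62), a placental growth factor, and the matrix metalloproteinases Mmp9 (4.52) and Mmp13 (4.49). These genes were chosen after their values were seen. Of 16 interferon-gamma inducible genes with a read in any passage 2 culture, 10 had their highest culture value in the same library, as did 9 of 13 class I genes and 12.5% of all genes with a read. Gbp2 was at 11.4 FPKM there and 1.63 to 8.85 FPKM elsewhere, Cxcl10 at 4.92 against 0.341 to 3.61 FPKM and B2m at 1167 against 401 to 733 FPKM. The interferon-gamma inducible list summed to 43.8 FPKM there and to 8.21 to 31.9 FPKM in the other passage 2 cultures, and the class I list to 1237 FPKM against 446 to 778 FPKM.

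Leukocyte lists other than the macrophage list were low in the cultures. In day 14 replicate 3 the pan-leukocyte list summed to 0.828 FPKM, within the 0.106 to 2.99 FPKM of the other passage 2 cultures, the dendritic cell list to 0.824 against 0.123 to 0.740 FPKM, the B cell list to 1.83 against 0.332 to 2.90 FPKM and the T cell list to 0.832 against 0.126 to 0.659 FPKM. The macrophage list summed to 373 against 19.8 to 256 FPKM, of which Cd14 alone gave 371 FPKM, while Adgre1, C1qa, C1qb and C1qc were listed at 0 in all day 14 libraries but not in adult LG. Cd68 was listed at 0 in every group and is not informative. Of the other defining markers, Itgax was at 0.551 FPKM in day 14 replicate 3 and at 0 to 0.153 FPKM in the other passage 2 cultures. Of 6 macrophage genes with a read in these cultures, 3 (Cd14, Csf1r and Lyz2) were highest in day 14 replicate 3. So were 2 of 5 dendritic cell genes (Flt3 and Itgax), 1 of 5 B cell, 1 of 4 T cell and 0 of 4 pan-leukocyte genes. Over all genes with a read this share was 12.5%. Mucl2, which gave 171251 to 807362 FPKM in adult LG, was at 40.4 FPKM in day 14 replicate 3 (0.00730% of the adult mean), 45.7 FPKM in day 10 replicate 3 and 58.3 FPKM in day 5 replicate 2, and at most 0.179 FPKM in the other passage 2 cultures. Those libraries also held the highest H2-Ab1 value of their day, although at day 5 this was 10 reads in replicate 2 against 9 in replicate 1. The part of these signals in the H2-Ab1 value was not tested.

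The change over culture time was tested at day 10 against day 5, which the choice of genes did not use. Of the 8 members, 3 passed the filter and none was called by limma. H2-Ab1 differed by 0.21 (SE 0.40, adjusted p = 0.967, with -0.15 to 0.48 over 12 alternatives), Cd74 by 0.27 (SE 0.34, adjusted p = 0.941) and H2-DMb1 by 0.15 (SE 0.29, adjusted p = 0.966). Of 15363 genes, 0.00% were called in either direction with these 5 libraries, 748 had an unadjusted p under 0.05, and limma-voom called 0 as well. None of the 8 regulators, 5 processing genes, 8 class I genes, 7 interferon-gamma inducible genes and 1 costimulator tested was called. The Cd74, H2-DMb1 and H2-Ab1 values rested on 3 to 33 reads each.

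Class II levels were lower in LGSCs at day 10 than in adult LG, in the comparison of cultured cells with the gland they came from. All 6 members tested were called lower by limma, among 18.6% of 17690 genes called lower. H2-Aa, H2-Oa and Ciita passed the filter only through adult LG, so their direction was fixed by the filter. Cd74 differed by -8.99 (SE 0.39, adjusted p = 7.44e-05), H2-Ab1 by -8.12 (SE 0.41, adjusted p = 0.00011) and H2-DMb1 by -3.26 (SE 0.30, adjusted p = 0.000787). By group means, Cd74 was 1080-fold, H2-Ab1 497-fold, Ciita 19.4-fold and H2-DMb1 16.3-fold lower. H2-Aa was at 0 in all 3 day 10 libraries. With the floor set at 3 reads in each library, it was at least 1514-fold and H2-Oa at least 5.76-fold lower on the deposited scale. Rescaled to recovered reads, the adult means were 175 for H2-Aa, 0.868 for H2-Oa, 600 for Cd74 and 354 for H2-Ab1. The day 10 means of Cd74 and H2-Ab1 were then 1.02 and 1.32, so the folds given here were smaller on that scale. Ciita differed by -2.0 (SE 0.23, adjusted p = 0.00177). The H2-Oa call (adjusted p = 0.0304) rested on 2 to 12 reads per adult library and was lost without any single day 10 library (adjusted p = 0.0729 to 0.0915) and without the filter (adjusted p = 0.055). The split of calls, 2065 higher and 3289 lower, became 4338 and 1787 when FPKM were rescaled to recovered reads, where the median of all genes moved from -0.07 to 0.46.

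The rest of the pathway differed by list in LGSCs at day 10. Regulators and processing genes were mostly not called lower than in adult LG, and most class I and interferon-gamma inducible genes were. The other class II genes H2-DMb2, H2-Ob and H2-Eb2 were at 0 in all day 10 libraries and entered the fit only through adult LG (2.07, 1.98 and 1.23 FPKM), so their call as lower was fixed by the filter. Of 10 regulators tested, Ifngr2 was higher (40.4 against 12.8 FPKM, adjusted p = 0.00602) and the other 9 did not pass, among them Rfxap (24.2 against 35.7 FPKM), Nfya (16.6 against 15.1 FPKM) and Rfx5 (15.2 against 10.2 FPKM). Of 7 processing genes, Ctsd (507 against 228 FPKM, adjusted p = 0.0139) and Ctsl (2.53 against 0.719 FPKM, adjusted p = 0.0368) were higher and Ctss, which like March1 passed the filter only through adult LG, was lower (0.155 against 185 FPKM, adjusted p = 9.98e-05). Of 11 class I genes 9 were lower (median -1.36, against -0.07 over all genes), with B2m at 610 against 1700 FPKM (adjusted p = 0.00398) and Tap1 at 23.5 against 25.1 FPKM (adjusted p = 0.97), and of 14 interferon-gamma inducible genes 10 were lower (median -1.43). Of these, 3 class I and 7 interferon-gamma inducible genes tested passed the filter only through adult LG. Over all 17690 genes tested, 18.6% were called lower at day 10 and 2065 genes were called higher. The 1 of 10 regulators called higher was near that share. The costimulator Cd80 was higher (2.59 against 0.0618 FPKM, adjusted p = 0.00601) and Cd86, which passed the filter only through adult LG, lower (0 against 3.36 FPKM, adjusted p = 0.00765). The 5 pan-leukocyte, 6 dendritic cell, 5 T cell and 2 B cell markers tested were lower, as were 7 of 8 macrophage markers, with Cd14 at 129 against 127 FPKM. All but Cd14, Aif1 and Trac passed the filter only through adult LG, so for those genes the filter fixed the direction. The part of leukocytes in the class II difference was not tested.

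Across all conditions H2-Ab1 was highest in adult LG (589 ± 179 FPKM, SD, n = 3), then at day 14 (16.8 ± 25.4), E19.5 (7.34 ± 1.61), E17.5 (7.24 ± 1.55), day 10 (1.19 ± 1.02), day 5 (0.774 ± 0.18, n = 2) and day 7 (0.430 ± 0.212). Without day 14 replicate 3 the day 14 mean was 2.13 FPKM, below both embryonic stages, and the other day 14 libraries lay below every embryonic library. With it, day 14 overlapped E19.5, E19.5 overlapped E17.5, and day 10 overlapped day 5. The ranges of day 10 and E17.5 did not overlap, nor did those of day 5 and day 7, whose nearest values were 0.647 and 0.625 FPKM. H2-Aa (290 ± 73.9 FPKM) and Cd74 (973 ± 333 FPKM) were also highest in adult LG, followed by both embryonic stages and then by every culture day, and for these genes all culture libraries lay below all embryonic libraries. H2-DMb1 at day 14 (2.70 ± 1.42 FPKM) overlapped both E17.5 (1.67 ± 0.379 FPKM) and E19.5 (2.29 ± 0.727 FPKM).

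The genes with the pattern closest to H2-Ab1 depended on the libraries compared. Over the 20 libraries and 14064 genes, the 10 highest Pearson r values of log2(FPKM + 1) were those of Ifi27 (0.965), an interferon-inducible gene, Slc2a4rg-ps, N4bp2os, Fam107a, H2-DMb1 (0.947), H2-Q5, Hist2h4, Lepr, Ace and Gm15912 (0.939). H2-Aa ranked 19 (0.930), Cd74 37 (0.921), Ciita 71 (0.912) and H2-Oa 2994 (0.513). Without day 14 replicate 3 H2-Aa was at 0.99 and Cd74 at 0.98. Over the 11 passage 2 cultures and 11965 genes, the closest were Mmp9 (0.973), Rarres1 (0.970), Col11a1 (0.963), Gm16754, Ttc12, Armh4, 1500009C09Rik, Cyp2d10, Gm15912 and Ifi27 (0.923), while H2-DMb1 was at 0.725 and Cd74 at 0.320. Without day 14 replicate 3 these 10 genes had r of 0.37 to 0.80. The values are descriptions over libraries that share replicates and a gene list, with no test.

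**Figure D5:**
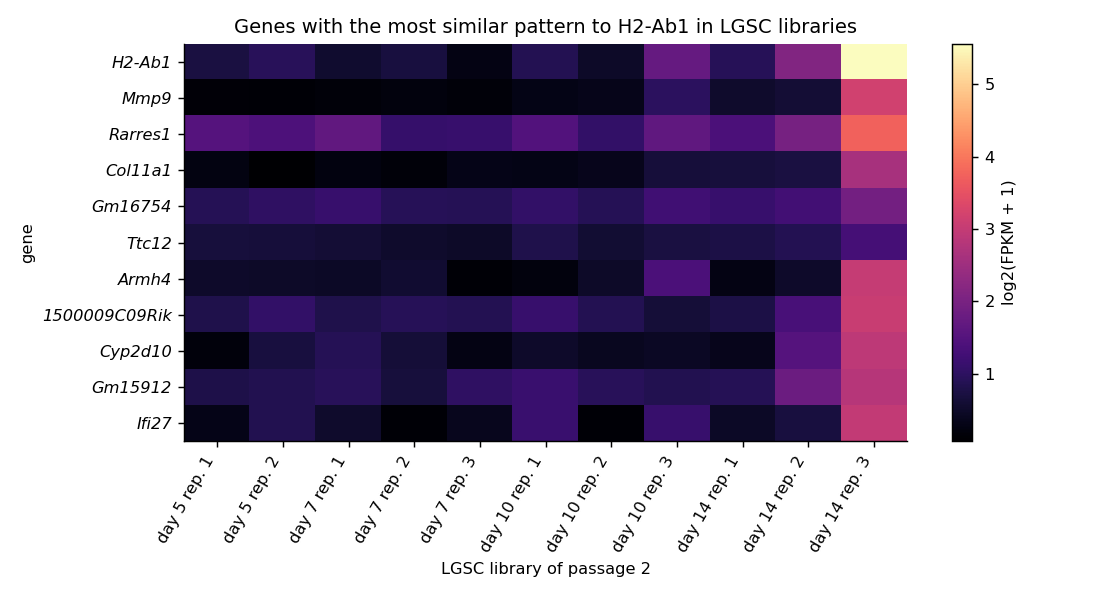
Colors give log2(FPKM + 1) of H2-Ab1 and of the 10 genes with the highest Pearson r to it (rows) in the 11 passage 2 LGSC libraries (columns). Day 14 replicate 3 is the brightest column for H2-Ab1 (46.1 FPKM), Rarres1 (12.5 FPKM), Mmp9 (7.96 FPKM) and Ifi27 (6.81 FPKM).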

How the data were processed

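Trizol RNA was made into poly(A) libraries with the NEBNext Ultra kit and sequenced as 150-bp pairs. The submitters' processing notes name CASAVA 1.8, HISAT2 2.0.5, featureCounts 1.5.0-p3 and the build NCBIM37. The authors deposited 1 table of FPKM per library; how FPKM were scaled is not given in the sources used here. The 20 passage 2 and tissue tables list 63862 genes (52636 Ensembl identifiers, 52403 of them in GENCODE M21, and 11226 assembled loci). Of 24 samples, 3 were not analysed here. Positions come from GENCODE M21 (GRCm38), since the files hold none and the noted build differs. Reads were recovered per gene as whole multiples of the smallest step, so depth follows from the files, and no count test other than limma-voom was run.

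Groups and replicate numbers came from the labels. limma 3.58.1 (lmFit, eBayes with trend, R 4.3.3) was run on log2(FPKM + 1), for genes averaging 0.5 FPKM or more over the fitted libraries, two-sided, Benjamini-Hochberg over all genes tested, threshold 0.05. The 9 tissue libraries shared 1 fit, and day 10 was fitted with day 5 (5 libraries) and with adult LG (6 libraries). The step was tested on simulated data. Same-numbered day 14 and day 7 libraries deviated together (r = 0.26, 0.60 and 0.26), so the difference is also given within numbers, although day 14 replicate 1 correlated best with day 7 replicate 3 (0.41). The members and gene lists were chosen with earlier results of these data known. Named genes were all members, per list the up to 4 with the highest mean FPKM and any that a count of 5 or fewer singles out, and the 10 genes most correlated with H2-Ab1. Alternatives were the pseudocount (0.1), the filter (none, or a mean of 2 FPKM), 2 other scalings, limma-voom, a replicate block, other libraries in the fit and leaving out each library. The values of 1 listed gene are not reported here.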

Additional observations from a re-analysis of the deposited data

Results flagged for a closer look

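The passage 10 LGSC library entered no comparison, and 2 members were above all 20 other libraries in it. H2-Eb1 was at 10.4 FPKM (292 reads), against at most 0.700 FPKM, in adult LG, elsewhere. H2-DMa was at 1.49 FPKM (58 reads), against at most 0.0791 FPKM. In the same library H2-Aa was listed at 0, H2-Ab1 was at 0.154 FPKM, Cd74 at 0.567 FPKM and Ciita at 0.0240 FPKM. The library was counted against another gene list (52747 genes), there is 1 such library, and 1098 Ensembl genes listed at 0 in all 20 others had at least 1 FPKM in it. The part of the gene list in these values was not tested.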

How the results depend on the processing

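The number of members called lower than in adult LG was 5 at both embryonic stages in all alternatives run except 6 without the filter and 4 with a filter at a mean of 2 FPKM. At day 10 it was 6, or 5 where H2-Oa was lost or not tested. In the main fits the filter fixed the direction of Ciita at both embryonic stages and of H2-Aa, H2-Oa and Ciita at day 10. No member was called between the embryonic stages or between day 10 and day 5 in any alternative run. Among single genes H2-Oa had its call at day 10 lost without the filter or without any single day 10 library and gained at E17.5 under 2 alternatives. Without the filter H2-Eb1 entered and was called lower by limma at E17.5 (-0.48, adjusted p = 0.0163) and E19.5 (-0.52, adjusted p = 0.0114). These 2 calls rested on 1 to 6 reads per adult library and 0 or 1 read per embryonic library. For day 10 against day 5 the sign changed for H2-Ab1 (-0.15 to 0.48) and H2-DMb1 (-0.12 to 0.42) and not for Cd74 (0.04 to 0.53), and between the embryonic stages it changed for H2-Ab1 (-0.09 to 0.18) and Cd74 (-0.12 to 0.15) and not for the other 4 members tested. Counts over all genes moved more. With a filter at a mean of 2 FPKM, fewer genes entered and 2859 were lower and 3404 higher at E17.5, 2630 lower and 3716 higher at E19.5, and 54 lower at E19.5 than at E17.5. Rescaled to recovered reads, 2318 were lower and 8125 higher at E17.5, 2261 lower at E19.5, 88 higher at E19.5 than at E17.5, and 1787 lower and 4338 higher at day 10 than in adult LG, and the cause was not tested. Between the embryonic stages a pseudocount of 0.1 gave 29 lower and 133 higher, limma-voom 186 and 325, and a fit of those 6 libraries alone 809 and 1335.

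With adult LG by replicate 3 only, chosen after seeing the data, 2117 genes were lower and 625 higher at day 10, and H2-Oa was not tested. The lone adult library was then assumed to vary like the other group. Leaving out 1 library gave 12 (without E17.5 LG replicate 1) to 672 lower and 36 to 1064 higher genes between the embryonic stages, and 1913 to 4282 lower and 997 to 2590 higher at day 10 against adult LG. The highest of each came without adult LG replicate 3 and the lowest at day 10 without LGSC day 10 replicate 3. For H2-Ab1 at day 14 against day 7, the difference ranged from 1.02 without day 14 replicate 3 to 3.34 without day 14 replicate 1, and was 2.83 without the replicate 2 libraries of both days, also chosen after seeing the data.

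With the replicate number as a block, 18 genes were lower and 82 higher between the embryonic stages, 1371 were higher at day 10 than in adult LG, and no member call changed. The H2-Ab1 difference of day 14 from day 7 was 2.36 with the block as without it, by construction. Same-numbered tissue libraries did not deviate together (r of -0.08 to 0.07), nor did day 10 and adult libraries (-0.07 to 0.02), and day 10 and day 5 shared 2 numbers (0.43 and 0.45). The 2 day 5 libraries mirror each other around their mean, so these 2 values are not separate. Day 10 replicate 3, with no day 5 partner, had r of 0.23 with day 5 replicate 1 and -0.23 with replicate 2. Members with few reads limit the precision in the cultures, where 3 reads of H2-Aa correspond to 0.173 to 0.236 FPKM.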
